A study of Mus musculus with 9 samples.

Results

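Late recovery from traumatic brain injury was examined by comparing microglia taken 90 days after the injury with microglia taken 30 days after it. The comparison used 6 of the 9 libraries in the series, 3 mice at each of the 2 times, and it covered every gene with at least 1 CPM (counts scaled to a library total of 1e+06, the unit of the deposited values) in at least 3 of these 6 libraries, which held for 13825 of the 49671 genes listed. All mice were male C57BL/6 animals carrying CD45.2, made into chimeras at 8 weeks of age: the body received 1000 cGy of irradiation with the head shielded, followed by busulfan at 30 mg/kg and marrow from CD45.1 donors. At 16 weeks they received a controlled cortical impact, a piston blow to the exposed cortex through intact dura. CD45.2 microglia were sorted from the brain, so that CD45.1 descendants of the graft fell outside the gate while CD45.2 host cells that survived the conditioning did not. The day 30 libraries carry replicate numbers 2, 3 and 4 and the day 90 libraries numbers 1, 3 and 4. Sham-operated or uninjured animals were not analysed here, so time after injury cannot be told apart from the mice's age or from time since transplantation. The 3 libraries of day 7 after injury entered the fit to share the estimate of spread and are given as a reference.

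Microglia are the resident macrophages of the brain, kept by signalling through the receptor Csf1r and marked at rest by genes such as P2ry12, Tmem119 and Cx3cr1. When they meet dying cells, myelin debris or protein deposits they can take on a disease-associated state, in which the lipid sensor Trem2 and its adaptor Tyrobp are needed for a program of lipid handling, lysosomal digestion and secreted factors that includes Apoe, Lpl, Spp1, Gpnmb, Cst7, Axl and Igf1. Cortical impact kills neurons and strips myelin, and the debris is cleared over weeks.

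Between day 30 and day 90, 7 genes fell and none rose at an adjusted p under 0.05 (limma on log2(CPM + 1) with Benjamini-Hochberg adjustment over the 13825 genes). The 7 were Cst7, Lpl, Spp1, Gpnmb, Axl, Igf1 and Cd72, all of them members of a list of 32 disease-associated genes drawn up with earlier results of these data known, and their mean levels at day 90 lay between 8.29 and 55.4 CPM. They were 0.0506% of the genes tested, and the share that rose was 0%. In bulk RNA such as this, fewer cells in a state and less RNA per cell cannot be told apart. Across all genes, 495 (3.58%) were lower and 237 (1.71%) higher at an unadjusted p under 0.05, 732 in all (5.29%) where chance alone would give 691. The median log2 change over all genes was -0.06, and 54.8% of genes had a change below 0. Counting instead the genes whose 3 day 90 libraries all lay outside the range of the 3 day 30 libraries gave 869 below (6.29%) and 548 above (3.96%). On the whole reads recovered from the CPM values, edgeR called 4 genes lower (0.0289%; Cst7, Lpl, Igf1 and the gene model Gm44230 described below) and none higher, while 254 were lower and 187 higher at an unadjusted p under 0.05, and DESeq2 called 18 lower (0.13%) and 4 higher (0.0289%).

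**Figure D1:**
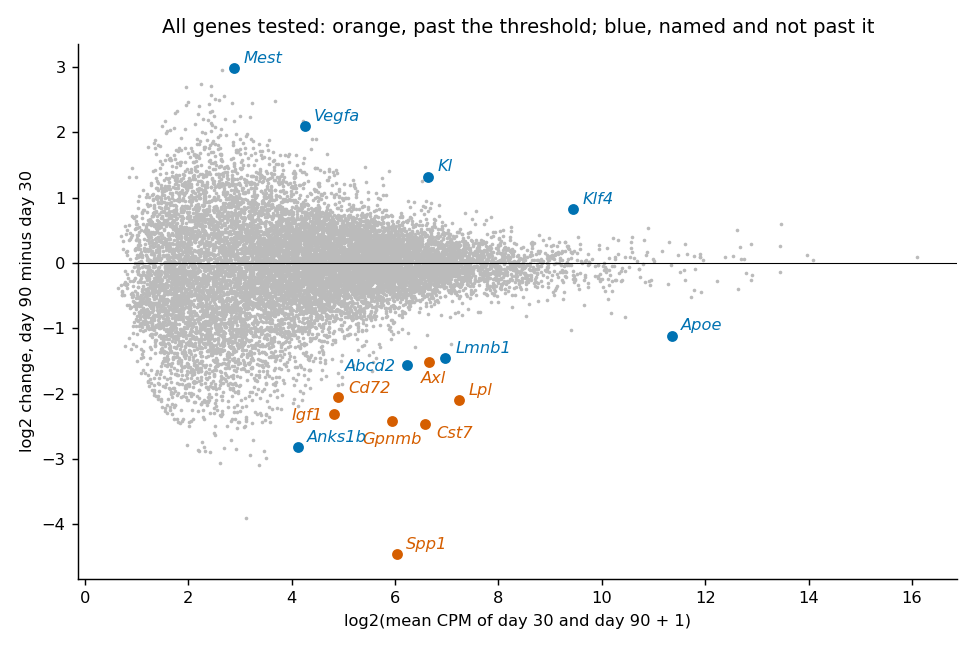
Each point is 1 of the 13825 genes tested, with the log2 of the mean CPM over day 30 and day 90 plus 1 on the horizontal axis and the log2 change (day 90 minus day 30) on the vertical axis. Orange points are the 7 genes past an adjusted p of 0.05, all below 0 from Axl at -1.51 to Spp1 at -4.46. Blue points are named genes that did not pass.

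Between 10538774 and 12965926 reads per library were assigned to genes, so that a count of 3 reads stood for 0.231 to 0.285 CPM. Replicate 1 of day 90 differed most from the rest: its median correlation with them was 0.827 against 0.878 to 0.884 for the rest, and it lay at 117 on a first principal component (35.2% of the variance) where the others lay between -27.8 and -11.8. It had the fewest genes with a read (14039, against 14898 to 17334), 5.54% of its reads were mitochondrial against 4.23% to 4.78%, and it held the most transcripts of choroid plexus and endothelial cells, as given below. The 7 calls were the same 7 genes without it, and the log2 changes of genes and the list medians below that moved by over 1.5 times or turned sign on leaving it out are printed with both values. All 6 libraries carried the microglial markers, of which 10 summed to 14978 CPM in day 90 replicate 1 and to between 19048 and 21461 CPM in the others. Markers of neurons were present too, and 17 of them summed to 1630 to 3222 CPM at day 30 and to 1032 to 1876 CPM at day 90, ranges that overlap; their part in the falls that follow was not tested. Transcripts of T cells and neutrophils were few. Markers of T and NK cells summed to 13.42, 8.61 and 9.199 CPM at day 30 and 27.74, 13.57 and 16.998 CPM at day 90. All 3 day 90 sums thus lay above those of day 30. Of 14 markers 2 were tested, Il7r (+1.38) and Nkg7 (+1.07), and neither had an adjusted p under 0.05 by limma. Their median was +1.23, or +0.71 without day 90 replicate 1. Cd3e, Cd3d and Mmp8 held 0 reads in all 6. The B cell markers Cd79a and Ms4a1 also held 0 reads in all 6. Ighm, of the same B cell list, stood at 276, 390 and 307 CPM at day 30 and at 245, 258 and 291 CPM at day 90.

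Spp1 and Igf1 encode secreted factors. Osteopontin, the product of Spp1, binds integrins and Cd44, and it is made by macrophages in injured tissue. Spp1 stood at 72.9, 159 and 131 CPM in day 30 replicates 2, 3 and 4 and at 0, 6.17 and 19.4 CPM in day 90 replicates 1, 3 and 4. Every day 90 library lay below every day 30 library, and replicate 1 of day 90 held no read of it. At day 7 the gene had stood at 314, 150.2 and 311 CPM. The fall from day 30 to day 90 was a log2 change of -4.46 ± 0.59 (SE, limma adjusted p = 0.000103), the largest of the 7, and -3.27 without day 90 replicate 1. The count-based tests did not call it (edgeR adjusted p = 0.181, DESeq2 adjusted p = 0.63), and it also missed the threshold with a pseudocount of 0.1 CPM and with a robust spread; with no filter on low values none of the 7 passed. Its exons overlap the predicted gene Gm42793 on the same strand (mm10 chromosome 5, 104435118 to 104441050 for Spp1), so reads of the pair may have been left uncounted or split.

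Igf1, insulin-like growth factor 1, supports the survival of neurons and of oligodendrocyte precursors. It read 25.5, 66.5 and 46.1 CPM at day 30 and 4.55, 11.9 and 8.46 CPM at day 90, without overlap, against 93.2, 76.5 and 112 CPM at day 7. The log2 change was -2.32 ± 0.42 (SE, limma adjusted p = 0.0157; edgeR adjusted p = 0.046, DESeq2 adjusted p = 0.000129) and -1.99 without day 90 replicate 1. The call was lost in the fit of the 6 libraries alone and when any one of day 30 replicates 3 and 4 and day 7 replicates 2 and 4 was left out.

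Cst7 and Lpl changed with the smallest p. Cst7 encodes cystatin F, an inhibitor that enters lysosomes and restrains cysteine cathepsins. Its level was 141, 203 and 137 CPM at day 30 and 30.2, 16.98 and 41.6 CPM at day 90, while the day 7 libraries held 215, 141 and 156 CPM. The day 30 and day 7 values thus shared a range, and all 3 day 90 values lay far below both. The log2 change from day 30 to day 90 was -2.46 ± 0.30 (SE, limma adjusted p = 5.69e-05), and edgeR and DESeq2 called it as well (adjusted p = 0.00501 and 1.34e-09).

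Lipoprotein lipase, encoded by Lpl (mm10 chromosome 8), releases fatty acids from lipoproteins. Lpl stood at 187, 326 and 223 CPM at day 30, overlapping the 434, 189 and 319 CPM of day 7, and at 42.9, 61.6 and 61.7 CPM at day 90. The day 90 libraries were again all below the others and lay close together. The log2 change was -2.10 ± 0.27 (SE, limma adjusted p = 0.000103; edgeR adjusted p = 0.00903, DESeq2 adjusted p = 1.02e-08). Both genes passed in all 9 fits that left out 1 library, and without day 90 replicate 1 their changes were -2.52 for Cst7 and -1.93 for Lpl.

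Gpnmb, Axl and Cd72 encode proteins of the cell surface. Gpnmb, a glycoprotein of the lysosome and cell surface, read 81.6, 102 and 116 CPM at day 30 and 8.92, 16.4 and 37.1 CPM at day 90, down from 179, 398 and 206 CPM at day 7. The 3 times did not overlap for this gene. From day 30 to day 90 its log2 change was -2.41 ± 0.36 (SE, limma adjusted p = 0.000989) and -1.95 without day 90 replicate 1, and edgeR gave an adjusted p of 0.0681. Axl, a receptor kinase that recognises dying cells through the bridging ligand Gas6, held 165, 166 and 116 CPM at day 30, 188, 135 and 166 CPM at day 7 and 49.0, 39.0 and 68.7 CPM at day 90. Its change of -1.51 ± 0.26 on the log2 scale (SE, limma adjusted p = 0.00963) was the smallest of the 7 and was -1.49 without day 90 replicate 1. Its call was lost on leaving out either of day 30 replicates 2 and 3 or replicate 3 of day 90, and edgeR gave an adjusted p of 0.06.

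Cd72 is an inhibitory receptor best known from B cells, where it recruits the phosphatase Ptpn6. Its reads gave 43.9, 38.02 and 56.9 CPM at day 30 and 9.72, 6.36 and 17.3 CPM at day 90, after 84.2, 97.5 and 98.2 CPM at day 7, with no overlap between any 2 times. The log2 change was -2.05 ± 0.39 (SE, limma adjusted p = 0.0219), and -2.01 without day 90 replicate 1. This was the call most often lost: it did not pass in 7 of the 9 fits that left out 1 library, among them all 3 without a day 30 library, nor in the fit of the 6 libraries alone or with edgeR (adjusted p = 0.06). The exons of Cd72 overlap those of Tesk1 on the other strand, and reads of the 2 genes cannot be told apart if strand was ignored in counting. Of 9 B cell markers 4 passed the filter on low values, with a median log2 change of -0.28 (-0.47 without day 90 replicate 1). Summed levels were 262 to 399.6 CPM over the 9 markers and 6 libraries. Ighm, at 245 to 390 CPM, held most of these sums, while Cd79a, Ms4a1 and Pax5 held 0 reads in all 6.

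**Figure D2:**
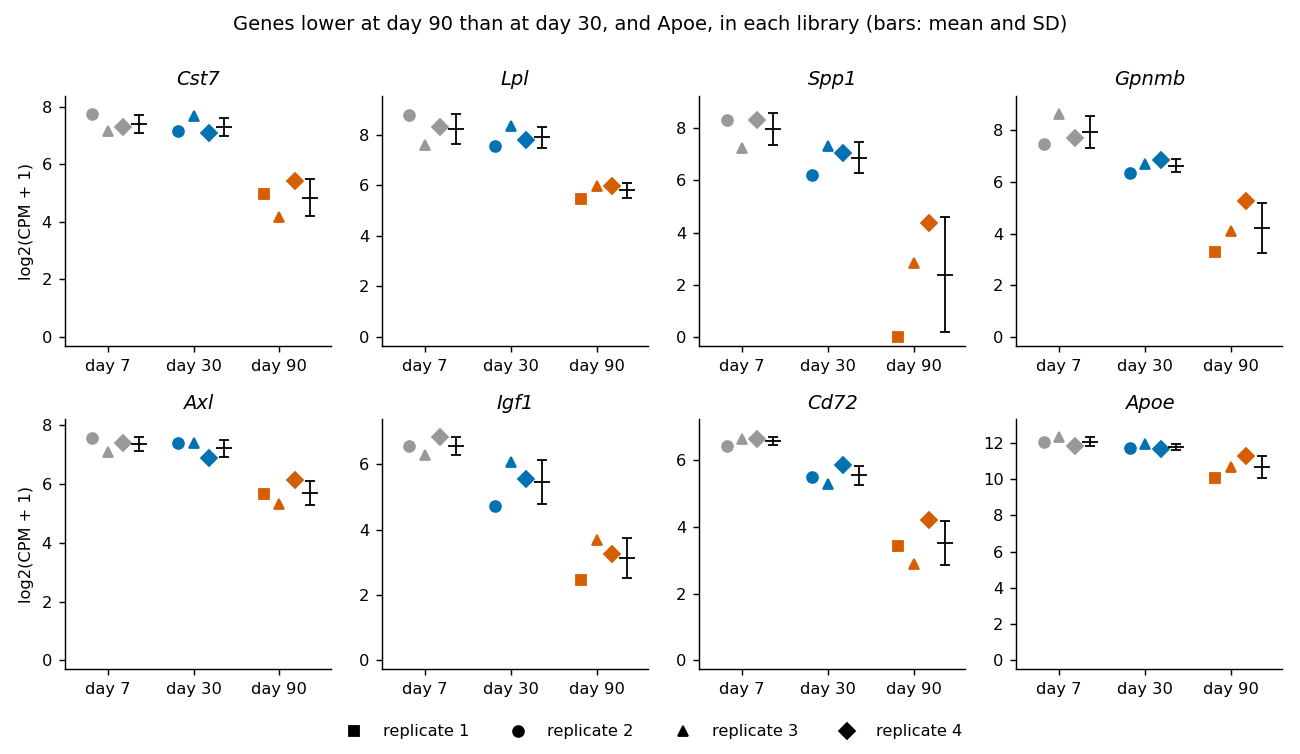
Levels of the 7 genes that fell and of Apoe, which did not pass the threshold, as log2(CPM + 1) in each of the 9 libraries (grey, day 7; blue, day 30; orange, day 90; marker shape gives the replicate number). Bars are the mean and SD of 3 libraries. In all 8 panels the 3 day 90 points lie below the 3 day 30 points, as they do for 6.29% of all genes. Picking genes by p in these same libraries favours this.

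For these genes, which fell together, the 250 bases before their annotated starts were read from RefSeq (GRCm38.p6), which held entries for 6 of the 7 (7 promoters in all, since Spp1 has a pair of starts). The core of the PU.1 site, GAGGAA on either strand, was looked for because PU.1 is the master transcription factor of macrophages. It was present in 4 of the 7 promoters, those of Spp1, Igf1, Axl and Cd72, while 23.3% of all 32851 promoters of this length hold it. The 4 sequences are printed 5′ to 3′ on the gene's strand with the motif matches in capitals, and show where each match lies (113, 60, 130 and 47 bases before the start for Spp1, Igf1, Axl and Cd72). In the Axl and Cd72 sequences the match reads TTCCTC because it is on the opposite strand.
Spp1, chr5:104434861-104435110, plus strand: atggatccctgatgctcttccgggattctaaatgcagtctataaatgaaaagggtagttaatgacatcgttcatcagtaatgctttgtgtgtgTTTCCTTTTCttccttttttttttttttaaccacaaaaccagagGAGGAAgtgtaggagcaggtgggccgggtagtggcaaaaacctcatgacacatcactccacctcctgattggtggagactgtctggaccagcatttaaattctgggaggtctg
Igf1, chr10:87860861-87861110, plus strand: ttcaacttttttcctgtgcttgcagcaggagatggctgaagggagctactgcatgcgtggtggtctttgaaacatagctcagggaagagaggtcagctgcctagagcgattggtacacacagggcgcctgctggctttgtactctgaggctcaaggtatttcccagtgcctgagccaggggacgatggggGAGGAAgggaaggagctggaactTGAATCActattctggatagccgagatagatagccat
Axl, chr7:25788734-25788983, minus strand: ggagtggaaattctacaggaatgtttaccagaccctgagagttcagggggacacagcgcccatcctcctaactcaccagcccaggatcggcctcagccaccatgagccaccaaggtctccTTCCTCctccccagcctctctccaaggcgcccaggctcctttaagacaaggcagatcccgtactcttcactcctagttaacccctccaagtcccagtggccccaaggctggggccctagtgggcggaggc
Cd72, chr4:43454627-43454876, minus strand: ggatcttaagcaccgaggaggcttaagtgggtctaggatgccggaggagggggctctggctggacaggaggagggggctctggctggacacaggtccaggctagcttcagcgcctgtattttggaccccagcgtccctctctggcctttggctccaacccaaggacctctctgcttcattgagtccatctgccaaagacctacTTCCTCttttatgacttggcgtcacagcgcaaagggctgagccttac
The Spp1 sequence also capitalises an interferon-stimulated response element (GAAA, any 2 bases, GAAA, on either strand), which 1 of the 7 promoters and 2.98% of all promoters hold. In the Igf1 sequence TGAATCA is capitalised, a match to TGANTCA, a loose pattern for AP-1 that allows any middle base. This pattern is held by 1 of 7 and by 6.75% of all. The CACCC box bound by Kruppel-like factors (CCACCC) was found in 1 of 7, that of Cst7, against 28.1% of all promoters, and CACGTG, the E-box of the MiT/TFE factors that drive lysosomal genes, in 0 of 7 against 6.02%. The end of GAGGAA can also begin an interferon-stimulated element, but no 2 matches share a base in the printed sequences, and a match is a description of sequence, not of binding.

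Apoe, the lipid carrier of glia and a target of LXR receptors, was the most abundant gene near the threshold. It stood at 3448, 3921 and 3201 CPM at day 30 and at 1065, 1630.4 and 2463 CPM at day 90, where every library was below the day 30 range. The log2 change was -1.11 ± 0.23 (SE, limma adjusted p = 0.079), -0.81 when day 90 replicate 1 was left out and -1.41 when replicate 4 was. The gene passed the threshold with DESeq2 (adjusted p = 0.00759), with a pseudocount of 5 CPM, with the filter over all 9 libraries, with quantile normalization and without day 90 replicate 4. It was followed by Abcd2, a peroxisomal transporter of very long chain fatty acids, at -1.57 ± 0.34 (SE, limma adjusted p = 0.0889), which stood at 126, 102 and 95.9 CPM and then at 18.4, 59.7 and 40.5 CPM. Lmnb1, the nuclear envelope gene lamin B1 whose loss is used as a mark of senescent cells, had a change of -1.46 ± 0.32 (SE, limma adjusted p = 0.094). Its 3 day 30 libraries held 179, 153 and 200.01 CPM and its day 90 libraries 29.8, 98.4 and 86.3 CPM, and its change was -0.93 without day 90 replicate 1.

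Lyz2, the macrophage lysozyme, had a log2 change of -1.02 (limma adjusted p = 0.293), with 724, 1366 and 665 CPM at day 30 and 300.2, 451 and 579.9 CPM at day 90. Its paralog may share its reads. Ccl6, a chemokine of myeloid cells, had a change of -1.25 (-0.81 without day 90 replicate 1), Lgals3, the galectin of damaged lysosomes, one of -1.68, and Cd300lf, an inhibitory lipid receptor, one of -1.91 on the log2 scale (limma adjusted p = 0.293, 0.372 and 0.492). In each of these 4 the day 90 libraries lay below the day 30 libraries, as in 6.29% of all genes. Their choice by smallest p favours this. Of the other named genes with a symbol, those of smallest p on this side were Nrxn2, Anks1b, Napb and Pcdh17, which serve synapses and neuronal adhesion, and the heparan sulfate enzyme Hpse. Their log2 changes lay between -2.99 and -1.36, and their adjusted p with limma was 0.61 to 0.649. Anks1b held 27.3, 25.9 and 25.6 CPM at day 30 and 0.268, 1.33 and 18.6 CPM at day 90, so that day 90 replicate 4 lay far above the other two. Gm44230, a gene model of chromosome 6 that the deposited table lists by its ID alone (ENSMUSG00000107905), had 530 reads over the day 30 libraries and 0 over those of day 90, at least 167-fold lower against a floor of 3 reads over the group, and edgeR and DESeq2 called it. DESeq2 further called Thrb, the thyroid hormone receptor beta gene (7.17, 14.1 and 1.66 CPM at day 30, then 0, 0.0949 and 0 CPM), and Sulf2, an extracellular sulfatase gene (12.96, 9.51 and 17.8 CPM, then 3.48, 0.854 and 1.44 CPM).

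No gene rose past the threshold with limma or edgeR. Klf4, a transcription factor gene that restrains inflammatory activation in macrophages and is also induced by tissue dissociation, had the smallest p among those higher at day 90. It stood at 464, 487 and 555 CPM at day 30, 519.8, 495 and 508 CPM at day 7 and 1061, 842 and 785 CPM at day 90. The 6 earlier values lay within a narrow band, with all 3 of day 90 above it. The log2 change from day 30 was +0.83 ± 0.19 (SE, limma adjusted p = 0.142, DESeq2 adjusted p = 0.000131). It was +0.70 without day 90 replicate 1. Kl, which encodes the anti-ageing protein klotho and in the brain is most abundant in the choroid plexus, stood at 74.0, 41.6 and 45.4 CPM and then at 228, 127 and 77.8 CPM, with the highest value in day 90 replicate 1. Its change was +1.32 ± 0.32 (SE, limma adjusted p = 0.293) and +0.93 without that library, and it passed the threshold without day 90 replicate 4 (+1.70, adjusted p = 0.0245).

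Pik3c2a, a class II phosphoinositide 3-kinase of endocytosis, held 29.2, 27.7 and 39.9 CPM at day 30 and 67.8, 67.7 and 87.6 CPM at day 90, a log2 change of +1.19 ± 0.33 (SE, limma adjusted p = 0.649). Cbx7, a subunit of Polycomb repressive complex 1, held 38.2, 33.6 and 19.4 CPM and then 80.3, 91.9 and 54.0 CPM (+1.30 ± 0.36, SE, limma adjusted p = 0.649). For both genes the times did not overlap, and the changes were +1.25 and +1.24 without day 90 replicate 1. Stk39, a kinase that controls chloride transporters, stood at 164, 63.9 and 37.5 CPM at day 90, with replicate 1 highest, and its change of +1.40 became +0.83 without that library. Hes1, a target of Notch signalling, and Ap1m1, a clathrin adaptor subunit, had changes of +0.95 and +1.03, and Noc3l, a ribosome biogenesis gene, had +1.67 with 12.2, 8.25 and 14.0 CPM at day 30 and 35.4, 41.5 and 36.8 CPM at day 90. Vegfa, the vascular growth factor induced by hypoxia, had +2.10 with 2.16, 12.7 and 6.31 CPM and then 41.5, 22.6 and 23.8 CPM. At under 20 CPM in every library of the 2 times, the imprinted gene Mest (+2.98), the protocadherin Pcdhgb2 (+2.95) and the DNA replication gene Gins3 (+2.73) had still larger changes, of which DESeq2 called Gins3 (adjusted p = 0.0485). With Klf4, the other genes it called as higher were the gene 1810037I17Rik (15.7, 26.1 and 23.5 CPM at day 30, then 80.6, 60.9 and 45.7 CPM) and the cytoskeletal gene Shroom3, with no read at day 30 and 10.9, 1.71 and 1.27 CPM at day 90, where replicate 1 was highest (+2.06, or +1.31 without it). Pcdhgb2 shares exons with other protocadherins of its cluster, so its level is uncertain. Exons of Pik3c2a, Cbx7, Mest and Shroom3 overlap those of a gene on the other strand, with the limit given for Cd72.

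**Figure D3:**
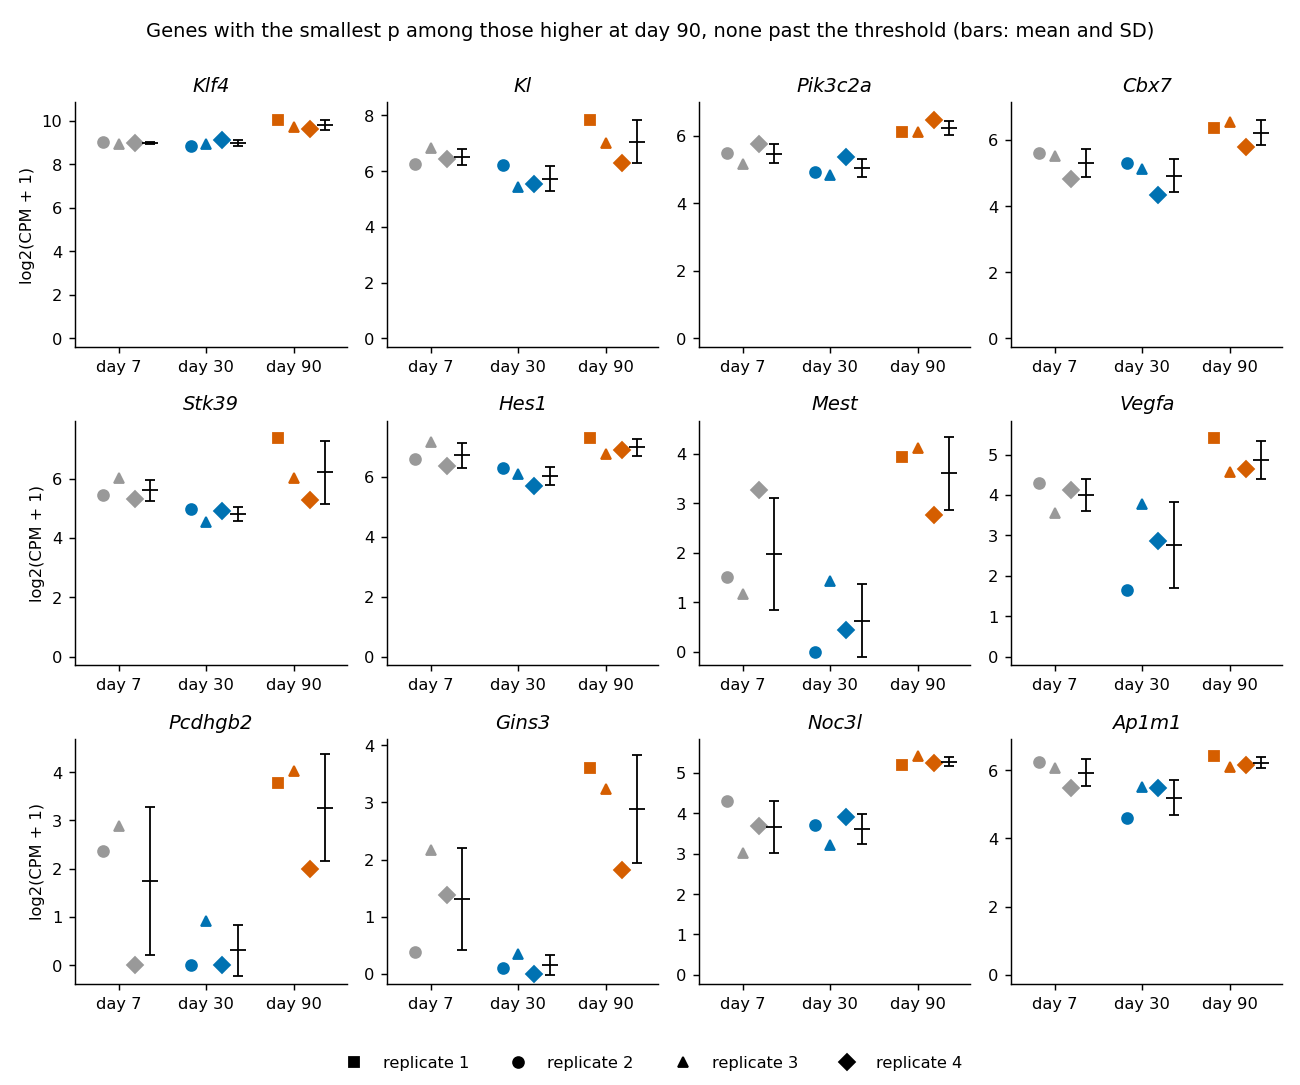
The 12 genes with the smallest p among those higher at day 90, leaving out predicted models and genes with Rik names (1810037I17Rik among them), none past the adjusted threshold, as log2(CPM + 1) in each of the 9 libraries (grey, day 7; blue, day 30; orange, day 90; marker shape gives the replicate number), with bars for the mean and SD of 3 libraries. The day 90 points lie above the day 30 points in all 12 panels, as they do for 3.96% of all genes. Picking genes by p in these same libraries favours this. Day 90 replicate 1 is the highest point in 7 of the panels (Klf4, Kl, Stk39, Hes1, Vegfa, Gins3 and Ap1m1).

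The disease-associated list, chosen with results known and so no independent evidence of its direction, had 32 members tested. Of these 30 were lower and 2 higher at day 90, where 54.8% of all genes were lower. Of the members 7 fell past the threshold, against 0.0506% of all genes. At an unadjusted p under 0.05, 17 were lower (3.58% of all genes), and 17 lay below day 30 with no overlap (6.29% of all genes). The median log2 change of the list was -0.58 against -0.06 for all genes. The median was -0.45 without day 90 replicate 1. The summed level of the 32 members was 21042, 24429 and 20981 CPM at day 30 and 12135, 17033 and 18947 CPM at day 90. Beside the 7 and Apoe, members with no overlap were Ccl6, Lgals3, the cathepsin Ctsb (-0.76), the fungal receptor Clec7a (-1.16, or -0.60 without day 90 replicate 1), Lgals3bp (-0.60), Cd52 (-0.76, or -0.45 without that library), the tetraspanins Cd63 (-0.57) and Cd9 (-0.54), and Trem2 (-0.25), with no adjusted p under 0.05 by limma. The chemokine genes Ccl3 and Ccl4, in the same list, had changes of +0.08 and -0.27, and +0.16 and -0.0032 without it. Cathepsin D (Ctsd) stood at 2753 ± 223 CPM (SD, n = 3) at day 30 and 2226 ± 424 CPM at day 90, a log2 change of -0.32 that was -0.16 without it.

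Genes that the disease-associated program needs, and markers of microglia at rest, did not pass the threshold. Trem2 read 1314, 1342 and 1297 CPM and then 835, 1247 and 1295 CPM, where replicate 1 alone was far below the day 30 range. Its change was -0.25 ± 0.19 (SE), and -0.05 without replicate 1. Tyrobp had -0.27 with overlapping groups, and Csf1r -0.11; leaving that library out gave -0.03 and +0.10. Cx3cr1, whose product binds the neuronal chemokine fractalkine, read 6112, 5151 and 6330.0 CPM and then 4935, 7495 and 9024 CPM (+0.25, or +0.49 without replicate 1). P2ry12, the receptor that senses ADP released by injured cells, stood at 1117, 1657 and 1101 CPM and then at 1099, 1062 and 976 CPM. Tmem119 had a log2 change of -0.25 and Ptprc, which encodes CD45, one of -0.17, which became -0.08 and -0.09 without replicate 1. None of these 7 passed (limma adjusted p of 0.954 to 0.974). Their 95% confidence intervals run from -0.65 to 0.14 for Trem2 and from -0.22 to 0.72 for Cx3cr1.

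In the homeostatic list 11 of 27 members were higher and 16 lower, none passed, and the median was -0.10, or +0.02 without day 90 replicate 1. At an unadjusted p under 0.05, 4 were lower and none higher, against 3.58% and 1.71% of all genes tested. In all 3 day 90 libraries, 5 lay below the day 30 range and 1 above it, against 6.29% and 3.96% of all genes. The members of smallest p were secreted or surface proteins, Olfml3 (-0.56), the matrix protein Sparc (-0.52) and the Fc receptor-like Fcrls (-0.43). Sparc stood at 4422, 3504 and 4031 CPM at day 30 and at 2846, 2737 and 2722 CPM at day 90, the 3 late libraries being nearly equal and below the others (limma adjusted p = 0.886).

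**Figure D4:**
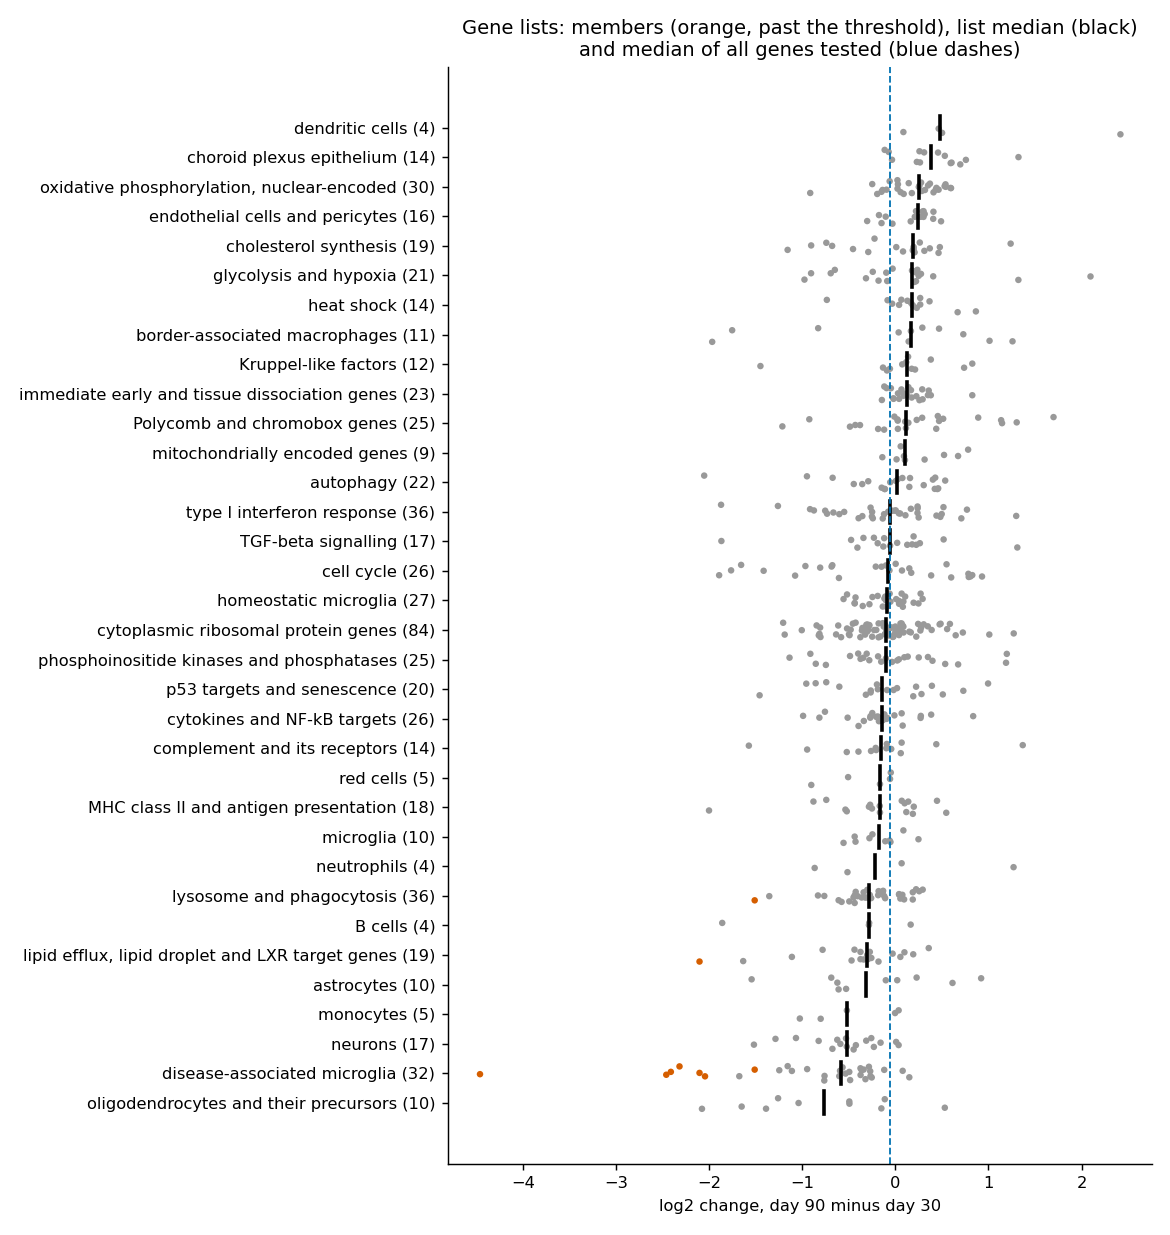
Log2 change (day 90 minus day 30, horizontal axis) of each tested member of each gene list with at least 4 members, with the number of members tested in brackets after the list's name. Black bars are list medians, and the dashed blue line is the median of all genes at -0.06. The orange members past the threshold lie in the disease-associated list, with Lpl shown again in the lipid efflux list and Axl in the lysosome list.

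Partners of the 7 genes were examined by role. Of the osteopontin receptors 7 of 8 were lower and 1 higher, none passed, and the median was -0.36, or +0.03 without day 90 replicate 1. The most abundant, the integrin Itgb5, stood at 1441, 1372 and 1496 CPM and then at 980.0, 1487 and 1561 CPM (-0.13, or +0.09 without that library). Of the insulin-like growth factor axis 6 of 10 were higher, none passed, and the binding protein Igfbp2 had +0.89 (+0.27 without day 90 replicate 1). For Axl, the related receptor Mertk had -0.44 ± 0.20 and the ligand Gas6 +0.18 ± 0.22 (SE; -0.27 and -0.11 without day 90 replicate 1), with 654, 494 and 567 CPM for Gas6 at day 30 and 949.6, 660.2 and 422 CPM at day 90. The cathepsins and legumain that cystatins inhibit were lower in 5 of 6 cases with a median of -0.14, and none passed. Ctsb stood at 1105, 1947 and 1317 CPM and then 595, 974 and 997 CPM (limma adjusted p = 0.698). Of the MiT/TFE factors known to drive Gpnmb, together with their regulator Flcn, 3 of 4 were higher and none passed. Mitf had -0.41 and Tfeb +0.26 (-0.75 and +0.41 without that library). For Cd72, its ligand Sema4d had -0.35 and its phosphatase Ptpn6 -0.38, and of the 5 partners 4 were lower and none passed. Among 7 receptors of Apoe, 5 were lower and none passed, with Sorl1 at -0.68 and Lrp8 at +0.83 (-0.44 and +0.41 without it), and of 6 proteins that act on Lpl 4 were higher and none passed.

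Lipid and lysosomal lists carried 1 call each, where 0.0506% of all genes tested were called. The genes were Lpl and Axl, both already counted among the 7 of the disease-associated list. Of 19 lipid efflux, lipid droplet and LXR target genes 15 were lower, Lpl was the one that passed, and the median was -0.30. The oxysterol enzyme Ch25h had -1.64 (-0.50 without day 90 replicate 1 and -2.63 without replicate 3), the cholesterol exporters Abca1 and Abcg1 -0.38 and -0.30, and the lipid droplet coat gene Plin2 -0.47. Of 19 cholesterol synthesis genes 12 were higher and none passed, with a median of +0.19 that was -0.15 without day 90 replicate 1. Among 36 lysosomal and phagocytic genes 26 were lower, Axl passed, and the median was -0.28 (-0.12 without day 90 replicate 1). Ctsz had -0.50, the scavenger receptor Msr1 -1.36 and progranulin (Grn) -0.43, and none of the 3 passed.

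Of the 36 genes of the type I interferon response 16 were higher and 20 lower, none passed, and the median was -0.05, ranging from -0.18 without day 90 replicate 1 to +0.01 without replicate 3. Ifit3 had the largest change in it at -1.87, from 15.3, 27.4 and 23.7 CPM to 1.34, 23.0 and 3.13 CPM with overlapping groups, and it was -1.18 and -2.86 on leaving out those same libraries. Of 26 cytokine and NF-kB target genes 20 were lower and none passed. Il1b stood at 432, 456 and 448 CPM at day 30 and at 137, 226 and 519 CPM at day 90, so that its 3 late libraries spanned both sides of the day 30 values (-0.82, or -0.38 without replicate 1 and -1.34 without replicate 4). The complement list had 10 of 14 members lower and a median of -0.15, with the C3a receptor C3ar1 at -0.52. The median was -0.17 for 18 genes of antigen presentation (+0.16 without day 90 replicate 1), and no gene of either list passed.

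Lists named after the higher genes gave no calls. Of 12 Kruppel-like factors 8 were higher with a median of +0.13 (+0.03 without either day 90 replicate 1 or day 30 replicate 4), among them Klf10 (+0.74) and Klf2 (+0.38), and 17 of 25 Polycomb and chromobox genes were higher with a median of +0.11, which was +0.18 and +0.06 without day 90 replicates 1 and 4. Klf2 stood at 979.8, 1065 and 1044 CPM at day 30 and at 1219, 1575 and 1253 CPM at day 90, without overlap. Of 30 nuclear genes of oxidative phosphorylation 23 were higher with a median of +0.25, but it was -0.04 without day 90 replicate 1. Autophagy genes had a median of +0.02 (-0.05 to +0.04 over the fits that left out 1 library), with the receptor gene Sqstm1 at +0.42 and Atg5 at -0.95, whose 3 day 90 libraries lay at 39.6, 38.6 and 38.1 CPM below 92.4, 67.7 and 69.6 CPM at day 30. Medians for the cell cycle, p53 and senescence, TGF-beta, phosphoinositide and glycolysis lists lay between -0.14 and +0.18, and between -0.06 and +0.02 without day 90 replicate 1, with none past the threshold.

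Most markers of neurons and of the oligodendrocyte lineage had log2 changes below 0. The 17 neuronal markers had a median of -0.52 (-0.37 when day 90 replicate 1 was left out, -0.27 when day 30 replicate 4 was), with 15 lower and none past the threshold, and summed to 1630, 2173 and 3222 CPM at day 30 and 1032, 1216 and 1876 CPM at day 90. The long noncoding RNA Meg3 (-0.82) and the synaptic genes Syt1 (-1.29) and Snap25 (-1.52) had the smallest p among them. Snap25 was at -0.63 without day 90 replicate 1 and -2.29 without replicate 4, and Meg3 at -0.54 without day 30 replicate 4. Of 10 oligodendrocyte lineage markers 9 were lower with a median of -0.77 (-0.40 without day 90 replicate 1). The precursor marker Pdgfra held 2.85, 2.42 and 5.26 CPM and then 0, 0.0949 and 0 CPM, a total of 124 and of 1 read. The part of neuronal and oligodendrocyte transcripts in the changes of the 7 genes was not tested.

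Choroid plexus and endothelial transcripts were most abundant in day 90 replicate 1. A list of 14 choroid plexus genes, drawn up after the values had been seen, summed to 12305, 8663 and 9746 CPM at day 30 and to 30164, 12358 and 9502 CPM at day 90. The retinol carrier Ttr alone reached 24476 CPM in that library, against 7027 to 10210.0 CPM in the other 5, and its change of +0.60 was +0.12 without it. The list, of which Kl is a member, had a median of +0.38 with it and -0.11 without it. For 17 endothelial and pericyte genes, of which 16 were tested, the sums were 3259, 2854 and 2425 CPM and then 5806, 2650.3 and 2105 CPM, with medians of +0.25 and -0.17. The part of these transcripts in the higher genes was not tested beyond the fits without that library.

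Markers of blood and border cells were low beside the 14978 to 21461 CPM of the microglial list. Dendritic cell markers summed to 525, 513 and 585 CPM at day 30 and to 528, 626 and 622 CPM at day 90. Of 9 markers 4 were tested, all higher and none past the threshold, with a median of +0.48. Cd209a among them held 0.386, 0 and 0 CPM and then 4.28, 10.1 and 2.62 CPM. Red cell markers summed to 500, 389 and 511 CPM and then to 513, 616 and 256 CPM. Monocyte markers, of which 5 of 12 passed the filter on low values, summed to 199.9, 131 and 124 CPM at day 30 and to 179, 133 and 127 CPM at day 90. Border-associated macrophage markers summed to 232, 229.8 and 195 CPM and to 243, 217 and 312 CPM. Of 11 markers 8 were higher and 3 lower, none past the threshold, with log2 changes of -1.97 for Cd163 and +1.01 for Pf4. The median was +0.17, or +0.34 without day 90 replicate 1 and -0.06 without replicate 4. Neutrophil markers summed to 92.6, 103 and 167 CPM and to 79.0, 58.0 and 167 CPM. Of the 4 tested 2 were higher, among them S100a9 (+1.27), and 2 lower, among them Ngp (-0.87), with none past the threshold. Immediate early genes, which respond to tissue dissociation, had 17 of 23 members higher, none past the threshold and a median of +0.13 (+0.26 without day 90 replicate 1 and +0.02 without replicate 3), with sums of 57247, 51040 and 58305 CPM at day 30 and 55062, 71402 and 62088 CPM at day 90. Of 14 heat shock genes 11 were higher with a median of +0.18, which was +0.39 and -0.21 without those libraries. Klf4 belongs to the immediate early list, whose part in its change was not tested.

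**Figure D5:**
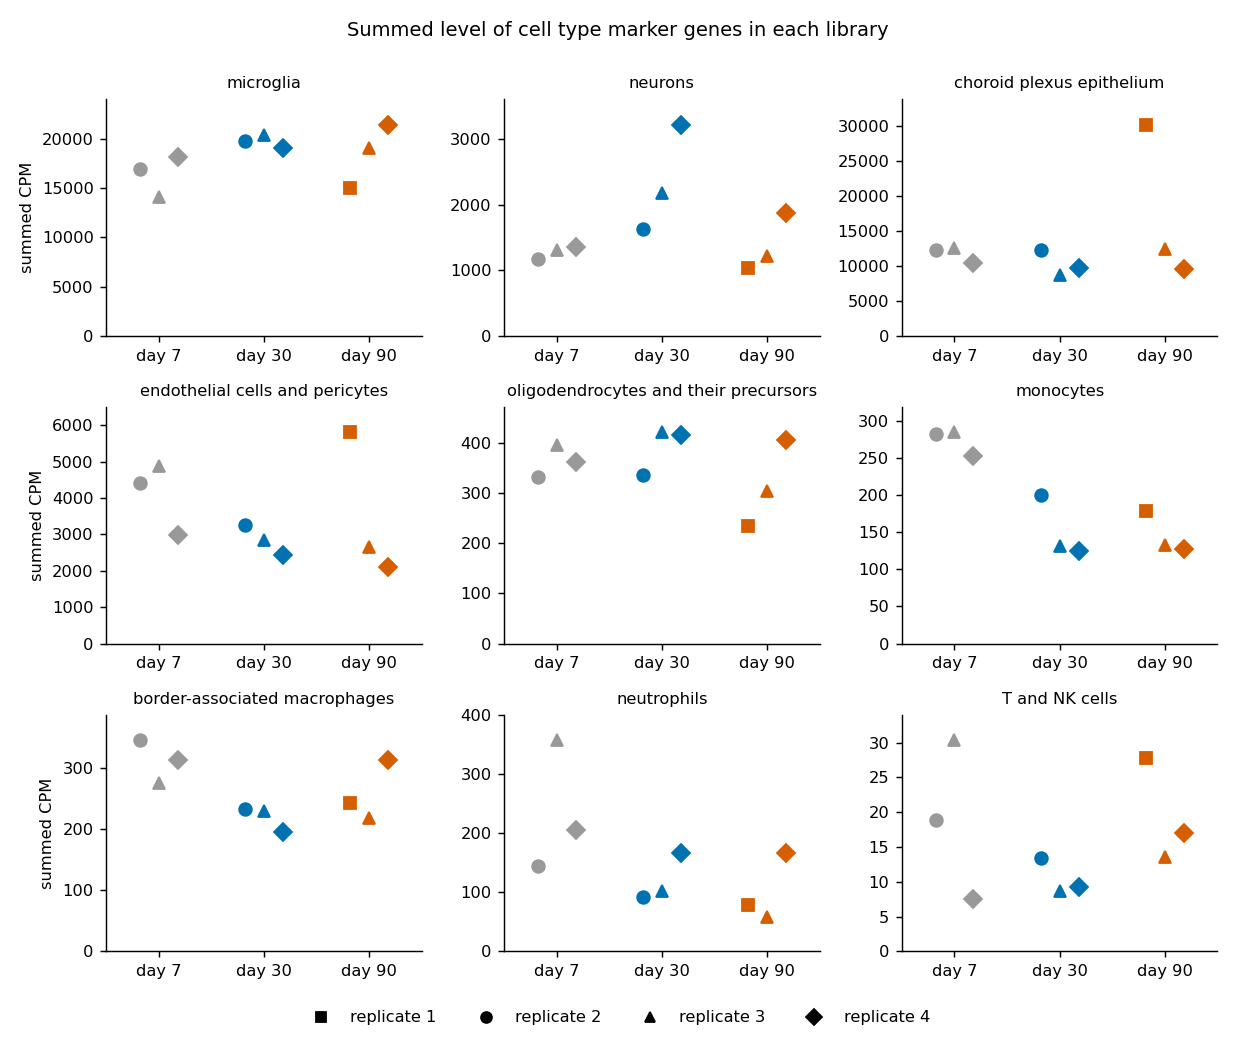
Summed CPM of marker genes of 9 cell types in each library (grey, day 7; blue, day 30; orange, day 90; marker shape gives the replicate number). Day 90 replicate 1 is the highest point for choroid plexus epithelium at 30164 CPM and for endothelial cells at 5806 CPM, and the highest neuronal sum, 3222 CPM, is in day 30 replicate 4.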

How the data were processed

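Messenger RNA of sorted microglia was measured in 9 libraries, and 6 of them, 3 mice at each of day 30 and day 90 after injury, were compared. Per the labels' protocols, the QuantSeq 3' mRNA kit, which reads the ends of transcripts, was used on PicoPure extracts. Tests compare the CPM of 1 gene between samples and not between genes. Sums over marker genes, and words such as most abundant, few or low, describe CPM only and were not tested. Per the submitters' processing notes, the authors ran HTSeq, STAR and bcl2fastq and used the mm10 build; for versions, annotation release and strand, nothing is given in the sources used here. The deposited values are CPM, scaled by the authors to a total of 1e+06 per library, and 100% of them came out as whole reads within 1e-06 when divided by the library's smallest step.

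Values were analysed as log2(CPM + 1). R 4.3.3 with limma 3.58.1 (lmFit, eBayes with a trend) gave each time point a mean in 1 fit of the 9 libraries (6 residual and 23.15 prior degrees of freedom), and the contrast was tested two-sided over 13825 genes, of which 474 have no symbol. The filter kept 97 genes only through day 30 and 36 only through day 90, so a fold change of a gene near 0 at 1 time depends on the pseudocount. Of the kept genes 30 had 0 reads in every day 90 library and 6 in every day 30 library. Fold changes are differences of mean log2(CPM + 1): the pseudocount of 1 understates ratios of low values, but since logs are averaged, 1 library near 0 can also take a change past the ratio of the group means (-4.46 for Spp1 against -3.79 with edgeR). edgeR 4.0.16 (quasi-likelihood) and DESeq2 1.42.0 on the recovered reads were alternatives, with other pseudocounts, filters, scalings, libraries left out and a replicate block. The scripts were tested on simulated data.

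The comparison, the gene lists and the genes followed were chosen with earlier results of these data known, and the choroid plexus list after the values were seen. Named were all genes called, the 12 of smallest p in each direction short of the threshold (predicted models and Rik names left out), up to 3 members of smallest p and the most abundant member of each list, genes called by another tool alone, and 8 microglial genes in any case, 1 of which is not reported here. Clec7a, Cd52, Cd63, Cd9, Ccl3, Ccl4, Ctsd, Abca1, Abcg1, Plin2, Grn, Msr1, Cd163 and Pf4 were added as known members of their lists after their values were seen. Lists are described by counts and medians and were given no test. Positions are from GENCODE M21, in which 49412 of the 49671 IDs were found. Levels of genes that have close copies are uncertain. If strand was ignored in counting, so are those of genes whose exons overlap a gene on the other strand. Among the genes named these include Cd72, Pik3c2a, Cbx7, Mest, Shroom3, Ctsb, Sulf2, Tcte1 and Nrxn2. Same-numbered libraries of the 2 times did not deviate together (correlations of 0.00189 and 0.0444 over genes), and the numbers were not taken as pairs. Each library is from 1 time point and its own mouse as far as the labels show. The limma p-values rest on a gene's spread between mice (6 residual degrees of freedom) and on that of other genes (23.15 prior). Reads carry no molecular identifiers, so floors of 3 reads cover counting error only.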

Additional observations from a re-analysis of the deposited data

How the results depend on the processing

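The 7 calls became 0 with no filter on low values (22493 genes tested, with 659 lower and 354 higher at an unadjusted p under 0.05), 4 with edgeR, 22 with DESeq2 and 4 with the replicate block, while the other settings that kept all 9 libraries or used the 6 alone gave 5 to 8. Leaving out 1 library gave 4 to 15 calls: 4 without day 30 replicate 3 (Cst7, Lpl, Spp1 and Gpnmb) and 15 without day 90 replicate 4 (14 lower and Kl higher), each over 1.5 times from 7. Cst7, Lpl, Spp1 and Gpnmb passed in all 9 such fits, Axl in 6, Igf1 in 5 and Cd72 in 2. With the replicate block, Cst7, Lpl, Spp1 and Gpnmb passed; same-numbered libraries were not shown to be related. The all-gene median stayed between -0.07 and -0.01 under the other pseudocounts, filters and scalings with limma. Among genes named, changes near 0 turned sign without day 90 replicate 1 for Csf1r, Itgb5 and Gas6, whose changes over the 9 fits that left out 1 library ran from -0.31 to 0.10, from -0.25 to 0.0855 and from -0.11 to 0.48. For Ccl3 it was 0.0782, from -0.0212 without day 90 replicate 4 to 0.1608 without day 90 replicate 1. With the replicate block the first 3 were 0.0766, 0.12 and -0.0599, and that of Tyrobp was 2e-04. The causes were not tested. Of the list medians recomputed, 957 moved by less than the list's pooled SD between libraries and 32 by more. The 957 include fits that cannot move a median, such as those without a day 7 library, of the 6 libraries alone or with a robust spread. The SD also includes day 90 replicate 1, so a median that turned sign without it could count as within the spread. That of choroid plexus did, at +0.38 and then -0.11 with an SD of 0.70. With 3 mice a time, genes near 1 CPM rest on little over 10 reads a library, and small changes in them were not detectable at this depth.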

Other observations

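The genes tested that had no read at day 90 and that DESeq2 called included the testis gene Tcte1 (5.78, 6.55 and 5.43 CPM at day 30), Slitrk4, a neuronal membrane protein gene (6.56, 1.44 and 6.75 CPM), and Rbm41 (1.70, 3.32 and 11.5 CPM). Genes with at least 1 read numbered 14898, 17334 and 16443 in the day 30 libraries and 14039, 15235 and 16513 in those of day 90, so the groups overlap.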
